A study of Mus musculus with 8 samples.

Results

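Genes of fates that an early B cell gives up, the T lineage and the plasmacytoid dendritic cell, were followed in proB colonies with and without HMGN1 overexpression. The group held 9 genes: the CD3 chain genes Cd3e (ENSMUSG00000032093_at), Cd3g (ENSMUSG00000002033_at) and Cd3d (ENSMUSG00000032094_at), the T lineage factor genes Gata3 (ENSMUSG00000015619_at), Tcf7 (ENSMUSG00000000782_at) and Bcl11b (ENSMUSG00000048251_at), the receptor gene Notch1 (ENSMUSG00000026923_at), and the plasmacytoid dendritic cell genes Siglech (ENSMUSG00000051504_at) and Tcf4 (ENSMUSG00000053477_at). They were chosen by gene ID from a fixed list, and all 9 were among the 27835 rows of the deposited table, which gives IDs without symbols. The symbols are those paired with the IDs in that list.

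The 8 arrays measured total RNA from mouse proB cell colonies, grown from bone marrow in a semisolid B cell medium and harvested at 1 week. In 4 samples the cells were wild-type, and in 4 they carried a transgene that overexpresses HMGN1, a protein that binds nucleosomes. The promoter of the transgene, the age of the mice and whether a sample came from 1 animal are not given in the sources used here. The study's title ties HMGN1 overexpression to loss of trimethylation of lysine 27 on histone H3, a mark with which Polycomb complexes keep genes of other lineages silent. The comparison below asks whether transcripts of 2 other lineages differed with the genotype.

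In T cell precursors, Notch1 receives the signal that starts the T programme. Tcf7, Gata3 and Bcl11b then encode the DNA-binding proteins that build the programme and commit the cell to it, and the CD3 chains carry the signal of the T cell receptor. In B cell precursors this programme is held down, in part through PAX5, which represses Notch1. Plasmacytoid dendritic cells depend on E2-2, the E protein that Tcf4 encodes, and in mice they display the lectin Siglec-H. Tcf4 is not the gene of TCF-1, which is Tcf7, and its product also acts in B lineage cells.

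Intensities were compared as deposited, on a linear scale after normalization, and tests were run on their log2. The array medians lay between 95.8 and 100.1, and with 4 arrays a genotype the precision is limited. The arrays were not all alike: on the first principal component (29.9% of the variance) wild-type replicate 3 lay at 36.2 and the other 7 arrays between -17.5 and 2.51, and on the second (21.4%) HMGN1 replicate 4 lay at -19.8 and the other HMGN1 arrays between -6.37 and -4.54, while the wild-type arrays spread more widely, from -8.30 to 20.6. Where leaving out either array moved a fold change by over 1.5 times, the value without it is given. The overexpressed gene and the markers of B cells and other cells were not examined here, because no table in use paired their symbols with the IDs of the rows.

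No member passed the test between genotypes. By limma with Benjamini-Hochberg adjustment over all rows, 0 of the 9 members passed a threshold of 0.05, against 4 of all 27835 rows (0.0144%), and the members' adjusted p ranged from 0.483 for Tcf4 to 0.932 for Siglech. At an unadjusted p under 0.05 the count was also 0 of 9, against 10.4% of all rows. The exact permutation test over the 8 arrays gave its smallest possible two-sided p, 0.0286, for 1 member, Tcf4; that p is reached where the genotypes do not overlap, as in 6.81% of all rows. Mean values were higher in HMGN1-overexpressing colonies for 6 members and lower for 3, and 49.4% of all rows were higher. The median log2 fold change of the 9 members was 0.046, beside -0.0018 over all rows, and the median size of the log2 fold change was 0.12 beside 0.075. In these bulk samples fewer cells of a type and less RNA per cell cannot be told apart.

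**Figure D1:**
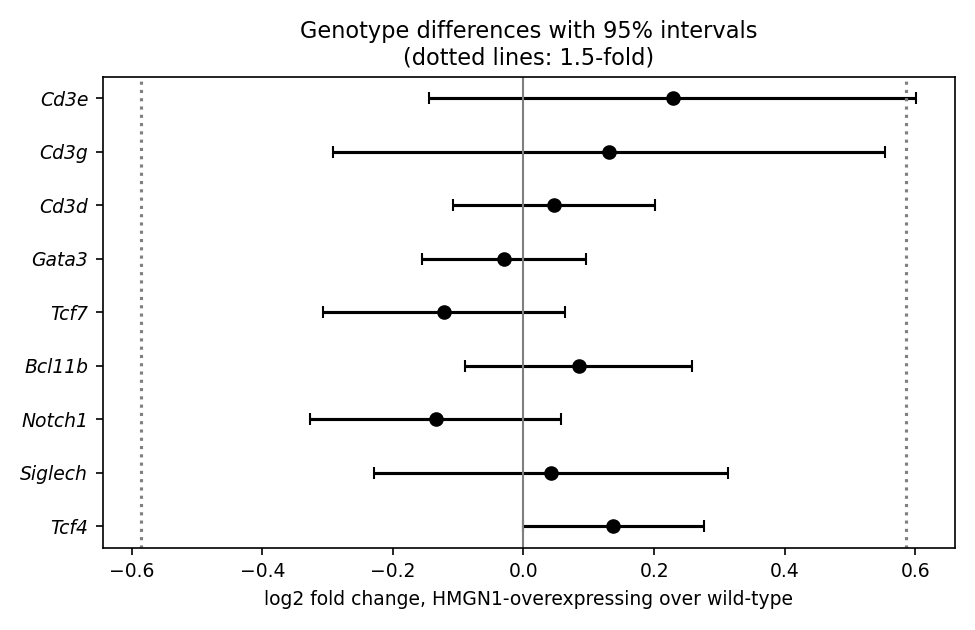
Log2 fold change of each of the 9 genes, HMGN1-overexpressing over wild-type, with points at the estimate and bars at the 95% interval of the limma fit over 4 and 4 arrays. All 9 intervals include 0, and the interval of Cd3e is the only one to cross a dotted line at 1.5-fold.

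The intervals set limits to differences in the deposited intensity, which need not be limits to differences in transcript. Whether dim rows stood above background could not be read from these values. For 8 of the 9 members the 95% interval of the fold change lay inside 1.5-fold in both directions, as it did for 93.8% of all rows. The exception was Cd3e, whose upper bound was 1.52-fold. The lowest bound was 0.797-fold, for Notch1. These are intervals for single genes and are not widened for the number of genes looked at. Cd3g, Cd3d, Gata3 and Bcl11b lay below the median signal, with 26.2%, 38.0%, 43.0% and 49.5% of all rows below their means. Cd3e, Siglech and Tcf7 lay little above it, at 53.0%, 53.2% and 56.8%. Notch1 and Tcf4 were brighter, at 82.6% and 93.1%.

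Among the CD3 chains, Cd3e had the largest mean difference of the 9 members, and 1 array decided its size. Cd3e encodes CD3 epsilon, a chain that pairs with the gamma and delta chains in the receptor complex. Its intensity was 118, 93.2, 108 and 93.2 in wild-type replicates 1 to 4 and 111, 103, 104 and 175 in HMGN1 replicates 1 to 4. HMGN1 replicate 4 stood above every other array, while the other 3 HMGN1 arrays lay within the wild-type range. The mean log2 value was 6.68 ± 0.17 in wild-type and 6.91 ± 0.37 in HMGN1-overexpressing colonies (SD, n = 4 each). The resulting log2 fold change was 0.23 (SE 0.167, limma adjusted p = 0.669; two-sided exact permutation p = 0.343). Without HMGN1 replicate 4 the HMGN1 mean was 6.73 ± 0.056 (SD, n = 3) and the log2 fold change of Cd3e was 0.046 (limma adjusted p = 0.926).

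Cd3g, which encodes CD3 gamma, had the widest spread within genotypes, and the genotypes were interleaved. Its intensity was 41.0, 38.2, 44.2 and 31.0 in wild-type replicates 1 to 4 and 52.3, 28.9, 39.3 and 52.0 in HMGN1 replicates 1 to 4. HMGN1 replicates 1 and 4 lay above all wild-type arrays and HMGN1 replicate 2 below all of them. For Cd3g the log2 fold change was 0.13 (SE 0.189, limma adjusted p = 0.845), and it ranged from 0.024 without HMGN1 replicate 1 to 0.31 without HMGN1 replicate 2. Without HMGN1 replicate 4 it was 0.027, and without wild-type replicate 3 it was 0.20. The residual SD within genotypes was 0.33 on the log2 scale for Cd3g and 0.29 for Cd3e, beside a median of 0.12 over all rows. Rows with a smaller residual SD made up 97.7% of the 25% of rows that hold Cd3g when rows are ranked by signal, and 92.6% of the 25% that hold Cd3e.

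Cd3d, which encodes CD3 delta, had the narrowest spread of the CD3 genes. Its intensity ran from 57.5 to 69.9 in wild-type arrays and from 62.6 to 66.7 in HMGN1 arrays, so that every HMGN1 array lay inside the wild-type range. Its log2 fold change was 0.046 (SE 0.069, limma adjusted p = 0.851), and its residual SD was 0.087. HMGN1 replicate 4 was at 66.7, the highest HMGN1 array and second to wild-type replicate 4 at 69.9. The log2 fold change of Cd3d was 0.0065 without wild-type replicate 2, 0.030 without HMGN1 replicate 4 and 0.10 without wild-type replicate 4, so its size also turned on single arrays.

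**Figure D2:**
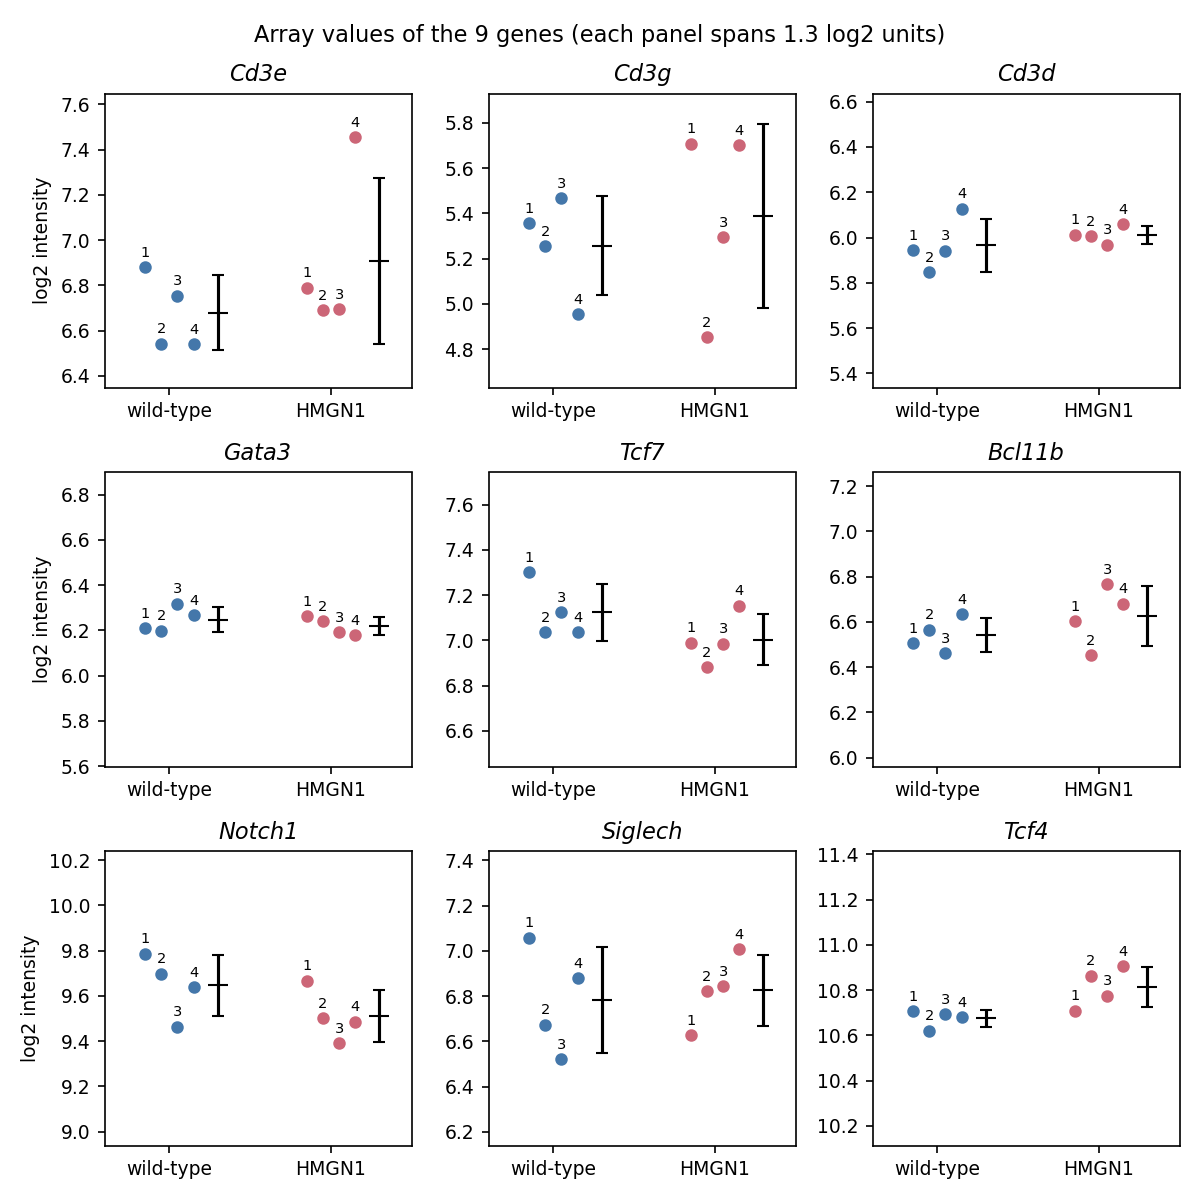
Log2 intensity of each of the 9 genes in the 4 wild-type arrays (blue) and the 4 HMGN1-overexpressing arrays (red), numbered by replicate, with the mean and SD of each genotype in black beside them. Every panel spans the same log2 distance, so that the wide scatter of Cd3g and the single high array of Cd3e can be set against the narrow bands of Gata3 and Cd3d.

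The 3 CD3 genes neighbour each other on chromosome 9 in the RefSeq annotation of GRCm38.p6, with Cd3g and Cd3d on opposite strands. Their start regions are shown because these neighbours serve 1 receptor, and that of Siglech because it belongs to the other lineage. Any relation of these sequences to the scatter across the arrays was not tested. Each run is 300 bases from RefSeq, build GRCm38.p6, 250 before and 50 after the annotated start, 5′ to 3′ on the strand of the gene. Capitals mark matches on either strand to 4 short motifs of protein families met among the 9 genes: CANNTG, the E-box of E proteins such as the product of Tcf4; GATAA, of GATA factors; CTTTG, of TCF-1 and its relatives; and TGGGAA, of RBPJ, the DNA-binding partner of Notch. The windows are chr9:45009562-45009861 (minus strand) for Cd3e, chr9:44980382-44980681 (minus strand) for Cd3g, chr9:44981536-44981835 (plus strand) for Cd3d and chr7:55767934-55768233 (plus strand) for Siglech.
Cd3e: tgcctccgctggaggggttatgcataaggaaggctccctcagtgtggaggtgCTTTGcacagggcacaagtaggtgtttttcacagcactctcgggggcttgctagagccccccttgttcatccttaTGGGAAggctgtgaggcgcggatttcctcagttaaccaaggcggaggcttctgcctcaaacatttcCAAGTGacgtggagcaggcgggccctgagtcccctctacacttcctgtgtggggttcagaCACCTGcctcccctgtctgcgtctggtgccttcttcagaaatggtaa
Cd3g: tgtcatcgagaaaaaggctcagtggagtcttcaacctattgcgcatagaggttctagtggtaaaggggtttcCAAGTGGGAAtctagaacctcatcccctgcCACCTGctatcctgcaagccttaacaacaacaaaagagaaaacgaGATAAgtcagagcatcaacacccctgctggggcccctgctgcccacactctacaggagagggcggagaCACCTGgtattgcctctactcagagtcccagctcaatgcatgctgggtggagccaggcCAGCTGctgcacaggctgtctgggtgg
Cd3d: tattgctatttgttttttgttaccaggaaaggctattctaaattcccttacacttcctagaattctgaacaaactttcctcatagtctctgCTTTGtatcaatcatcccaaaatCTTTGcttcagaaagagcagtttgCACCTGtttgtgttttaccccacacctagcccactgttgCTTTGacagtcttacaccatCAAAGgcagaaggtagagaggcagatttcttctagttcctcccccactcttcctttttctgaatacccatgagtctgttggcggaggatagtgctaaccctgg
Siglech: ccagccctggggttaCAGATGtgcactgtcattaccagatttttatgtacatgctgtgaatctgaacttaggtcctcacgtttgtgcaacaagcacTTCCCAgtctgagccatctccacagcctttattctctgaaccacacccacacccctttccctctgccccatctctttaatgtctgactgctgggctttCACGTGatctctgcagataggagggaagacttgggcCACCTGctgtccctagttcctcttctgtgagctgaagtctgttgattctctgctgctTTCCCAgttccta

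The Cd3e window held 2 E-boxes, 1 match to CTTTG and 1 to TGGGAA. The Cd3g window held 4 E-boxes, 1 match to GATAA and 1 to TGGGAA, the last overlapping an E-box. The Cd3d window differed from both in holding 4 matches to CTTTG beside 1 E-box. The Siglech window held 3 E-boxes and 2 matches to TGGGAA. Of the 9 members, 8 had an entry in the promoter table, with 9 windows in all. Tcf4 had no entry, and Tcf7 had 2 windows, each with an E-box. An E-box was found in 7 of these 9 windows, CTTTG in 4, TGGGAA in 3 and GATAA in 2. Over all 32851 promoter windows of the table the shares were 72.3% for the E-box, 53.9% for CTTTG, 25.6% for TGGGAA and 25.4% for GATAA. A match is a run of letters and no measure of binding.

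The 3 transcription factor genes of the T programme differed little between genotypes. Tcf7 encodes TCF-1, an early target of Notch signals in thymic precursors. Its intensity was 158, 131, 140 and 131 in wild-type replicates 1 to 4 and 127, 118, 127 and 142 in HMGN1 replicates 1 to 4. In HMGN1 replicates 1, 2 and 3 it lay below all wild-type arrays, and in HMGN1 replicate 4 it was second only to wild-type replicate 1. The mean was 140 ± 12.5 in wild-type and 129 ± 10.1 in HMGN1-overexpressing colonies (SD, n = 4 each). Between genotypes the log2 fold change of Tcf7 was -0.12 (SE 0.082, limma adjusted p = 0.646; two-sided exact permutation p = 0.171). It was -0.17 without HMGN1 replicate 4 and -0.063 without wild-type replicate 1, the ends of its range.

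Gata3, a factor required for early T cells, had the narrowest spread of the 9 genes. All 8 arrays lay between 72.4 and 79.8 in intensity, a range of 1.10-fold. Its residual SD of 0.048 on the log2 scale was undercut by 3.77% of all rows, and 43.0% of all rows had a lower mean signal. Whether so dim a row stood above background could not be read, so the narrow spread is one of intensity. Its log2 fold change was -0.029 (SE 0.056, limma adjusted p = 0.893), with a 95% interval of the fold change from 0.898 to 1.07. Leaving out 1 array gave -0.046 (wild-type replicate 2) to -0.0060 (wild-type replicate 3), and -0.016 without HMGN1 replicate 4.

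Bcl11b, which seals commitment to the T lineage, lay between 88.1 and 99.4 in wild-type arrays and between 87.6 and 109 in HMGN1 arrays. HMGN1 replicates 3 and 4 were above every wild-type array and HMGN1 replicate 2 below them all. For Bcl11b the log2 fold change was 0.085 (SE 0.078, limma adjusted p = 0.738; two-sided exact permutation p = 0.343). It ran from 0.038 without HMGN1 replicate 3 to 0.14 without HMGN1 replicate 2.

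Notch1 had the lower mean in HMGN1-overexpressing colonies, but the genotypes overlapped. The intensity was 883, 830, 706 and 796 in wild-type replicates 1 to 4 and 813, 725, 671 and 717 in HMGN1 replicates 1 to 4. Wild-type replicate 3 was lower than HMGN1 replicates 1, 2 and 4, and HMGN1 replicate 1 was higher than wild-type replicates 3 and 4. The mean was 804 ± 74.4 in wild-type and 732 ± 59.5 in HMGN1-overexpressing colonies (SD, n = 4 each). On the log2 scale the fold change of Notch1 was -0.13 (SE 0.086, limma adjusted p = 0.623; two-sided exact permutation p = 0.229). Without wild-type replicate 3, the array that lay apart on the first component, it was -0.20 with an unadjusted p of 0.0337, and did not pass after adjustment (limma adjusted p = 0.403). It was -0.088 without wild-type replicate 1 (limma unadjusted p = 0.346) and -0.094 without HMGN1 replicate 3 (limma unadjusted p = 0.332). Notch1 was among the brighter rows, with 82.6% of all rows below its mean. The brightness of a row depends on its probes, so that rows cannot be ranked by amount of transcript.

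Of the plasmacytoid dendritic cell genes, Siglech had overlapping values with no steady direction. Siglec-H is an endocytic surface receptor of mouse plasmacytoid dendritic cells. Its gene's intensity was 133, 102, 91.8 and 118 in wild-type replicates 1 to 4 and 98.9, 113, 115 and 129 in HMGN1 replicates 1 to 4. The wild-type arrays held both the highest and the lowest value. For Siglech the log2 fold change was 0.042 (SE 0.121, limma adjusted p = 0.932; two-sided exact permutation p = 0.8). It turned to -0.045 without wild-type replicate 3 and to -0.018 without HMGN1 replicate 4.

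Tcf4 was the 1 member whose genotypes did not overlap in the deposited values, though narrowly. Its intensity was 1671, 1574, 1656 and 1642 in wild-type replicates 1 to 4 and 1673, 1864, 1752 and 1917 in HMGN1 replicates 1 to 4. The lowest HMGN1 array, replicate 1, exceeded the highest wild-type array, replicate 1, by 0.0019 on the log2 scale, and the other 3 HMGN1 arrays lay further above. The mean was 1636 ± 42.8 in wild-type and 1802 ± 109.8 in HMGN1-overexpressing colonies (SD, n = 4 each). The limma fit to the log2 values gave a fold change of 1.10 with a 95% interval from 0.999 to 1.21. The log2 fold change of Tcf4 was 0.14 (SE 0.062, limma unadjusted p = 0.0518 and adjusted p = 0.483; two-sided exact permutation p = 0.0286). Beside the 6.81% of all rows, groups without overlap were found for 11.2% of the brightest 25% of rows, which hold Tcf4. With the HMGN1 arrays higher, the shares were 4.15% and 8.89%. After quantile normalization of the deposited values the groups of Tcf4 overlapped, 3 of the 4 HMGN1 arrays lay above all wild-type arrays, and the exact permutation p was 0.0857. When each array was left out in turn the log2 fold change stayed between 0.11 and 0.17, the lowest without HMGN1 replicate 4.

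**Figure D3:**
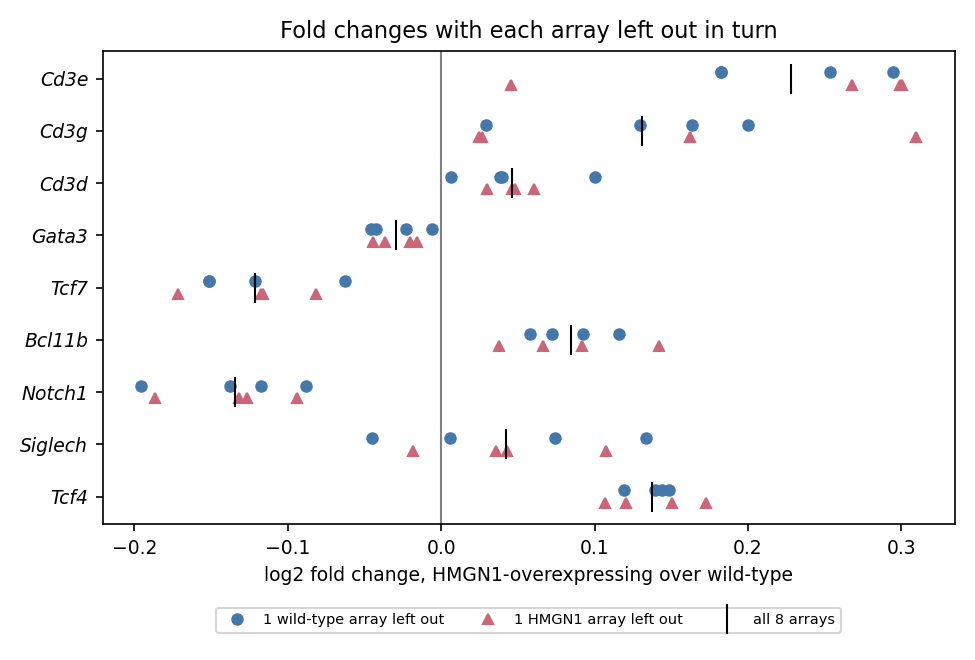
Log2 fold change of each of the 9 genes, HMGN1-overexpressing over wild-type, with all 8 arrays (black tick) and with 1 wild-type array (blue circles) or 1 HMGN1 array (red triangles) left out. The value of Cd3e drops from 0.23 to 0.046 without HMGN1 replicate 4, the values of Siglech fall on both sides of 0, and those of Tcf4 stay between 0.11 and 0.17.

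Array by array, HMGN1 replicate 4 was raised in most of the 9 genes. It had the highest value of the 8 arrays in 2 of them, Cd3e and Tcf4, and the second highest in 5 more, Cd3g, Cd3d, Tcf7, Bcl11b and Siglech. In Gata3 it was the lowest, and its Notch1 value lay below the mean of that gene. The share of all rows in which this array ranked so high was not computed, so these ranks cannot be called particular to the 9 genes. Wild-type replicate 1 was highest in 3, namely Tcf7, Notch1 and Siglech. HMGN1 replicate 2 was lowest in 3, namely Cd3g, Tcf7 and Bcl11b. Taken from the 8-array mean of each gene, the deviation averaged over the 9 genes ran from -0.089 in HMGN1 replicate 2 to 0.17 in HMGN1 replicate 4 on the log2 scale, and was 0.070 in wild-type replicate 1.

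**Figure D4:**
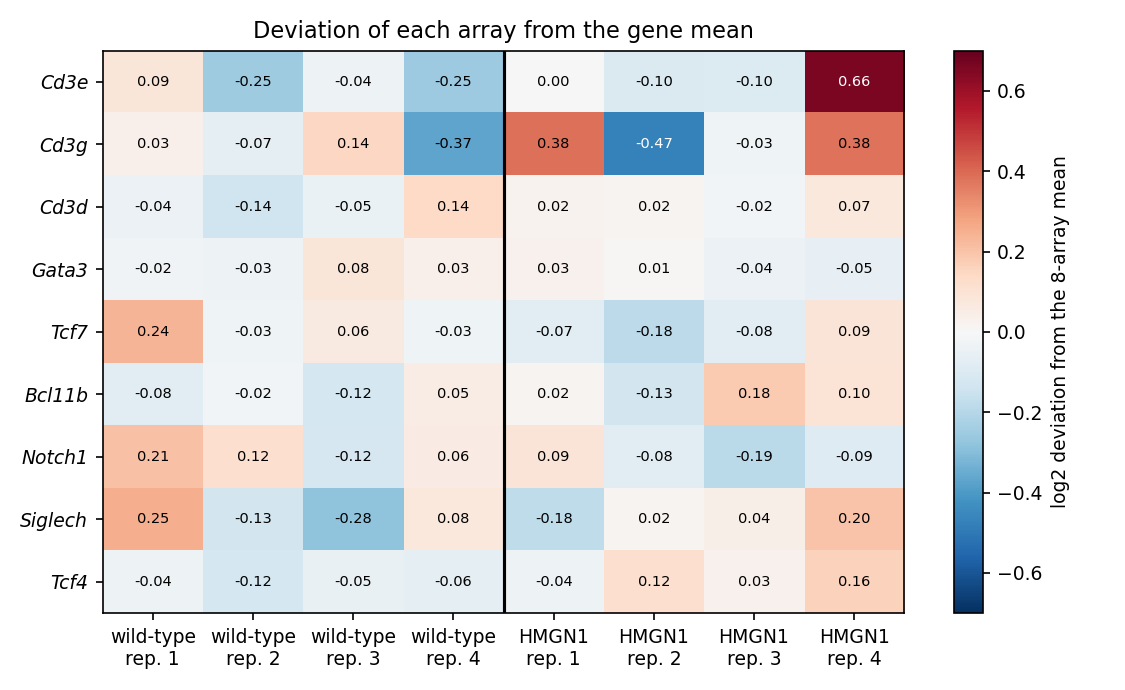
Deviation of each array (columns, wild-type to the left of the black line) from the mean of each gene over all 8 arrays (rows), in log2 units, with the value printed in each cell. The strongest cell is Cd3e in HMGN1 replicate 4, where 7 of the 9 genes are highest or second highest of the 8 arrays. The share of all rows in which HMGN1 replicate 4 ranked so high was not computed.

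Pairs of the 9 genes were compared over the 8 arrays, which span both genotypes and share their normalization. Of 36 pairs, 0 passed after Benjamini-Hochberg adjustment, by Pearson's r (lowest adjusted exact permutation p = 0.863) or by Spearman's rho (lowest adjusted exact permutation p = 0.784). By either measure 1 pair had an unadjusted exact permutation p under 0.05. For r it was Cd3e with Tcf4, at r = 0.69 (exact permutation p = 0.0499) and rho = 0.57 (exact permutation p = 0.151). Leaving out the 2 arrays farthest from the median of Cd3e brought r to 0.17, but dropping extreme values tends in itself to lower r. For deviations from the genotype means, r of this pair was 0.64. For rho it was Cd3e with Cd3g, at rho = 0.81 (exact permutation p = 0.0218) and r = 0.64 (exact permutation p = 0.0719). Its r was 0.40 without the same 2 arrays and 0.62 for deviations from the genotype means. For such deviations r was higher for Cd3e with Tcf7, at 0.85, and for Cd3g with Tcf7, at 0.66. Over the 8 arrays those pairs had r = 0.45 and r = 0.44. The r of deviations was not tested for any pair. Cd3d, the third CD3 gene, had r = 0.27 with Cd3e and r = -0.11 with Cd3g. Among genes of different roles, Gata3 and Siglech had the most negative coefficient, r = -0.67 (exact permutation p = 0.0717).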

How the data were processed

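Gene expression was measured on 8 Affymetrix arrays, 4 per genotype by the sample labels. The deposited values are a linear intensity (5.80 to 17578), with 1 row for each of 27835 gene IDs. The authors made them with RMA, per the submitters' processing notes. Because RMA makes the distributions of the arrays alike, it hides any difference in total RNA. The array model, gene definition and genome build are not given in the sources used here. There were 0 columns of other samples, and exactly equal values made up 0.0144% to 0.108% of rows in each pair of arrays.

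The log2 of each value was fitted with limma 3.58.1 (lmFit and eBayes, R 4.3.3) on genotype alone, and p-values were adjusted over all rows. Each member also had an exact permutation test, two-sided, over the 70 splits of the arrays (scipy 1.17.1, numpy 2.4.6, Python 3.11.15). The fit was also run on simulated arrays with independent noise and added changes of 1.5-fold and more. That run held no outlying arrays and no added changes as small as the differences of the 9 members. The labels do not say that replicates are separate mice, and the p-values cover only the spread among these arrays, which may be technical. The members and lists were chosen with earlier results of these data known. All 9 members are named. The rule also asked for list genes and for rows like the members, but 0 of 49997 reference genes carried an Ensembl ID, so the 12 lists (166 symbols) were not analysed here and likeness was computed among the members alone. Promoters were matched by symbol. Alternatives were array medians subtracted, quantile normalization, rows above the median signal, array weights, a trended and robust variance, log2(intensity + 16), the replicate number as a block and each array left out.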

Additional observations from a re-analysis of the deposited data

Results flagged for a closer look

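The Cd3e value of HMGN1 replicate 4, at 7.45 on the log2 scale, lay far from the other HMGN1 arrays: its gap to the nearest of them was 0.67 log2 units, 0.871 of the range of the 4 arrays, above Dixon's critical value for 4 samples. Each genotype of each gene was looked at in this way, 18 sets of 4 arrays, and this was the 1 set past that value; chance alone would put about 0.9 past it. Cd3g was also high in this array (52.0 in intensity) and Cd3d was at 66.7, the second highest value of the 8 arrays in each. Over all 9 genes this array was highest or second highest in 7, a count without the share over all rows, which was not computed. The same array lay apart from the other HMGN1 arrays on the second principal component, at -19.8, where the wild-type arrays ran from -8.30 to 20.6. The part of other cells or of RNA quality in this value was not tested.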

How the results depend on the processing

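By limma, 0 of the 9 members passed after adjustment over all rows in each of the 15 alternatives, the 8 with 1 array left out among them, while the counts over all rows ran from 0 to 40. With the replicate number as a block 0 members and 0 of all rows passed, with 2374 rows at an unadjusted p under 0.05. Deviations from the genotype means did not go together in same-numbered arrays (r = -0.078, -0.088, -0.24 and -0.095), and the labels do not say that they were paired. Above the median signal 5 members were left in the fit, without Cd3g, Cd3d, Gata3 and Bcl11b. The 1 member whose genotypes did not overlap became 0 after quantile normalization, where Tcf4 overlapped; the cause was not tested. Signs were kept in these alternatives except for Siglech, which ran from -0.045 to 0.13 with 1 array left out: it was -0.045 when wild-type replicate 3 was dropped and -0.018 when HMGN1 replicate 4 was. Tcf4 had a limma unadjusted p under 0.05 in 6 alternatives, where its adjusted p ran from 0.343 to 0.438, and Notch1 in 1. Over all 15 alternatives the limma adjusted p of Tcf4 ran from 0.343 to 0.725. Counts of list genes were not run. Whether dim rows stood above background could not be read from these values.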
